A study of Mus musculus with 19 samples.

Results

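Itch-sensing neurons sorted by a genetic MrgprA3 label (MrgprA3+) are set here against MrgprA3- neurons of the same ganglia, in mice made allergic to a hapten on the skin (allergic contact dermatitis, ACD). The samples were taken by their labels, the MrgprA3+ and the MrgprA3- libraries of ACD mice, which are 4 and 5 libraries, or 9 of the 19 in the series. All mice were male C57BL/6 animals of 2 months. In ACD mice squaric acid dibutylester (SADBE), a hapten that provokes a contact allergy, was given at 0.5% in acetone, 25 ul a day, first on the abdomen and later on the lower back. The other 10 libraries came from control mice, which received acetone, the solvent, in place of SADBE. On day 13 the 16 ganglia T11 to L6 of each of 5 mice per treatment were dissociated, and both populations were collected from every animal by flow cytometry. MrgprA3+ cells were taken by green fluorescent protein. MrgprA3- cells were taken by a gate set to cells of similar morphology, so that they are a mixture of other neurons of that appearance and not the whole ganglion. The construct that drives the label is not given in the sources used here, and the 19 libraries hold no MrgprA3+ replicate 3 of ACD mice.

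MrgprA3 is a receptor of the Mas-related family and answers the itch-evoking drug chloroquine in mice. Neurons that express it are unmyelinated fibres that end in the skin and are known as pruriceptors, the NP2 class of dorsal root ganglion neurons. The MrgprA3- gate can hold the other classes: the NP1 class with Mrgprd, the NP3 class with Nppb and Sst, peptidergic nociceptors, low-threshold C fibres with Th, and neurofilament-rich neurons (NF).

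Mrgpra3 was measured at 917, 928, 1079 and 836 FPKM in MrgprA3+ replicates 1, 2, 4 and 5, and at 20.2, 18.6, 14.01, 23.95 and 23.1 FPKM in MrgprA3- replicates 1 to 5. FPKM are fragments scaled to transcript length and to library depth, and values of libraries are given in this replicate order throughout. The populations were far apart, by 5.51 in log2(FPKM + 1). An exact two-sided permutation test that ignored the pairs by mouse gave p = 0.0159, the smallest that 4 against 5 libraries then allow. Since the cells were sorted by a label for this gene, the difference checks the sort. The low but constant level in the MrgprA3- libraries was measured in each of them. Mrgprb4, a marker of fibres that answer stroking of hairy skin, was at 33.3, 69.8, 108 and 105 against 0.77, 0.64, 0.25, 1.74 and 1.07 FPKM. Adora2b, an adenosine receptor coupled to Gs, was at 90.1, 74.1, 47.9 and 63.9 against 7.54, 5.55, 4.74, 5.16 and 4.59 FPKM. All 3 markers of the labelled neurons were thus far higher in every MrgprA3+ library, and the libraries carried the marks their labels give.

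Mrgprb4 and Mrgprb5 are neighbours on chromosome 7 whose promoters are alike in sequence but whose population differences were 5.31 and 1.29. The 300 bases from 250 before to 50 after each start, from RefSeq on GRCm38.p6, are shown for these genes because 82% of their positions are identical. Mrgprb4 lies at chr7:48199129-48199428 and Mrgprb5 at chr7:48168936-48169235, both on the minus strand, and capitals mark the 54 bases that differ.
Mrgprb4: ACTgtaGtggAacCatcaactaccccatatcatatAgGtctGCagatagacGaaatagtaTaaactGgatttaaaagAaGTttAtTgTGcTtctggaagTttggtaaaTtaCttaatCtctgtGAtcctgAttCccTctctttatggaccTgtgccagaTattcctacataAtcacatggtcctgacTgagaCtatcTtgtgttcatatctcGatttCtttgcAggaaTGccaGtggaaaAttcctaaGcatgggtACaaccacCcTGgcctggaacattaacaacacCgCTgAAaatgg
Mrgprb5: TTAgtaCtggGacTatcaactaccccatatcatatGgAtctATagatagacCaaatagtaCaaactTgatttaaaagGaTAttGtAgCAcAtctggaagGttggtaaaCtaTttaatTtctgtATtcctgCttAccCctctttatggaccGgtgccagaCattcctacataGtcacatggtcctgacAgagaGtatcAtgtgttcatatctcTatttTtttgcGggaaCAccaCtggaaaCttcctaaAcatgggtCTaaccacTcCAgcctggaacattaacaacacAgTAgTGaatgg
The promoters of Mrgpra2a and Mrgpra2b, in contrast, are identical over all 300 bases, and that of Mrgpra2b (chr7:47489533-47489832, minus strand) is shown with the E-box CAGGTG in capitals.
Mrgpra2b: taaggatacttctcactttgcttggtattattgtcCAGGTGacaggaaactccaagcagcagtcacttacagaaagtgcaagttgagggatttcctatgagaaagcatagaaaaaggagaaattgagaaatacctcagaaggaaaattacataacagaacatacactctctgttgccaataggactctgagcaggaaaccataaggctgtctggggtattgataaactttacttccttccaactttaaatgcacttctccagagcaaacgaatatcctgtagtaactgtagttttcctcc
Of 13 tested members of the family in the list used here 10 had a promoter in the table. CAGGTG or its reverse complement CACCTG was found in those of Mrgpra2a, Mrgpra2b and Mrgpra9, and in 20.3% of all 32544 promoters of this length. The Runx core TGTGGT (reverse complement ACCACA) occurred in that of Mrgpra1 alone among the 10, against 16.7% of all promoters, and TATAAA (reverse complement TTTATA) in that of Mrgprb4 alone, against 13.6%. No promoter of the 10 held more than 1 of the 3 motifs, so that no matches overlapped, and a match describes letters, not a bound site.

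Of 18 Mas-related receptors in the list used here 13 passed the expression filter. Of these 8 were higher in MrgprA3+ neurons, 1 was lower and 4 did not pass the test. The 8 include Mrgpra3, by whose label the cells were sorted. One of the 8, Mrgpra7, passed the filter through the MrgprA3+ libraries alone, and without any 1 of them it was not tested and 7 were higher. Over all genes 18.4% passed the test, 5.14% as higher and 13.2% as lower. Mrgpra7 was at 31.0, 24.8, 42.5 and 41.0 against 0.42, 0.35, 0.26, 0.43 and 0.89 FPKM (log2 difference 4.59, SE 0.27). Mrgpra4 was at 62.3, 50.6, 91.9 and 87.0 against 3.79, 2.31, 1.75, 2.43 and 3.98 FPKM (4.26, SE 0.28). Their differences came next after those of Mrgpra3 and Mrgprb4, and the libraries did not overlap. Mrgprx1, the symbol of the mouse receptor also called MrgprC11, which answers the peptide BAM8-22, was at 27.3, 26.9, 36.9 and 31.5 against 2.68, 4.56, 3.25, 2.17 and 3.27 FPKM (2.93, SE 0.26). Mrgpra8, which is not in the list, averaged 18.7 against 1.96 FPKM (2.73, SE 0.33). Mrgpra2b, Mrgprb5 and Mrgpra1 were higher by 1.53 (SE 0.13), 1.29 (SE 0.21) and 0.90 (SE 0.20). Those 3, named after their values were seen, were expressed in the MrgprA3- neurons too, at means of 45.4, 10.1 and 11.5 FPKM. Mrgprd, the receptor for beta-alanine that marks the NP1 class, was lower, at 60.8, 44.2, 41.7 and 57.6 against 274, 256, 264, 254 and 278 FPKM (-2.37, SE 0.13). Mrgpra2a did not pass (31.5 against 24.5 FPKM, adjusted p = 0.269 from limma), and neither did Mrgpre (30.5 against 23.8 FPKM). Reads of close paralogs may have been divided among them: 87.5% of the 50-base stretches of the Mrgpra2a transcript and 85.3% of those of Mrgpra2b occur in another gene, 13.1% for Mrgpra4, 7.14% for Mrgpra3 and 5.84% for Mrgprx1, but 1.45% for Mrgprb4 and 0% for Mrgprd. The values of Mrgpra2a and Mrgpra2b are therefore uncertain one by one. Mrgpra4 shared more stretches with Mrgpra3, the gene of the sort, than with any other gene (70 of 1210). The part of Mrgpra3 reads in the value of Mrgpra4 was not tested, and the sharing of Mrgpra7 was not determined.

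**Figure D1:**
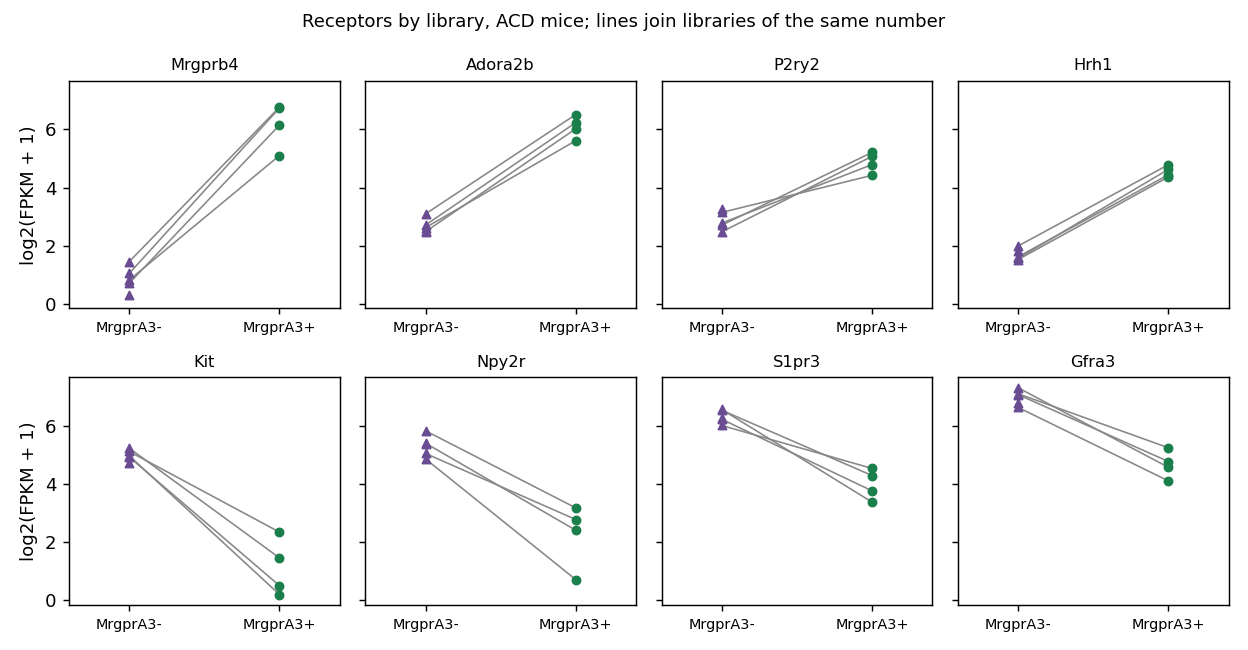
Levels of 8 receptors in log2(FPKM + 1) in the MrgprA3- (triangles, n = 5) and MrgprA3+ libraries (circles, n = 4) of ACD mice, with lines joining libraries of the same replicate number. Mrgprb4, Adora2b, P2ry2 and Hrh1 are higher in all 4 joined pairs, and Kit, Npy2r, S1pr3 and Gfra3 are lower in all 4.

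The libraries were of similar depth, about 14.6 to 16.5 M fragments in MrgprA3+ and 14.7 to 21.5 M in MrgprA3- libraries as estimated from the spacing of low values. Fewer genes were above 0 FPKM in the MrgprA3+ libraries, 13524 to 14360 against 15852 to 16102 (exact two-sided permutation p = 0.0159). That test, too, shuffled the labels freely and did not keep the libraries of a mouse together. Replicates were less alike in MrgprA3+ neurons, with correlations across genes of 0.921 to 0.954 between libraries, than in MrgprA3- neurons, with 0.978 to 0.987, and their residual variance was 4.11 times as large. Rn28s1, a ribosomal RNA gene that polyadenylated libraries should hold little of, was at 28.3, 0.08, 27.3 and 0.43 against 164, 116, 176, 189 and 150 FPKM. The part of this difference in any other result was not tested. In bulk samples of this kind, fewer cells of a type and less RNA per cell cannot be told apart.

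Markers of cells that are not neurons were also compared, beside shares of 5.14% higher and 13.2% lower over all genes. Of 13 macrophage and leukocyte markers, 2 passed the filter and C1qb was lower (0.015 against 2.96 FPKM), a call lost on leaving out any 1 of the 4 MrgprA3+ libraries (adjusted p from 0.0503 to 0.0918 from limma) and after quantile normalization (0.112). C1qa, C1qc and Tyrobp were at 0 in every MrgprA3+ library, and the summed level of the list was 0.26 to 1.78 against 5.55 to 27.51 FPKM. Of 8 tested Schwann cell markers out of 12, 1 was higher and 4 were lower (2 lower without MrgprA3+ replicate 1): Pmp22 averaged 1333 against 874, S100b 28.9 against 105 and Mbp 13.9 against 33.5 FPKM. Pmp22 made up most of the summed level of that list, 1361 to 1465 against 1022 to 1123 FPKM. Of 7 tested satellite glia markers out of 12, Bcan was higher (6.86 against 2.52 FPKM) and Ednrb lower (2.275 against 6.76 FPKM, a call lost without MrgprA3+ replicate 1 or replicate 2), at summed levels of 317.5 to 433.2 against 371.2 to 532.6 FPKM. Of 9 endothelial markers 2 were tested and Esam was higher, at 73.7, 28.8, 36.3 and 33.3 against 7.05, 10.01, 7.01, 6.29 and 8.25 FPKM. That gene made up most of the summed endothelial level of 29.46 to 75.49 against 7.74 to 14.92 FPKM, while Cdh5, Kdr, Flt1 and Vwf did not exceed 0.29 FPKM in any of the 9 libraries. Of 9 fibroblast and mural markers 4 were tested, Rgs5 was higher, and Dcn (6.67 against 22.5 FPKM) and Pdgfrb (3.08 against 7.94 FPKM, a call lost without MrgprA3+ replicate 2) were lower, with summed levels of 70.13 to 118 against 28.27 to 50.51 FPKM. The mural gene Kcnj8 was at 0 in all 9 libraries and Pdgfra at 0 in all 4 MrgprA3+ libraries. Red cell markers (2 tested, none past the threshold) summed to 2.3 to 6.28 against 2.81 to 7.68 FPKM. The part of these cells in the results that follow was not tested.

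Across 11199 genes that reached 1 FPKM in 4 or more libraries, 2059 passed the threshold (limma on log2(FPKM + 1), Benjamini-Hochberg adjusted p of at most 0.05). Of these 576 were higher and 1483 lower in MrgprA3+ neurons. Differences of at least 1 in log2 were passed by 196 higher and 859 lower genes, and of at least 2 by 39 higher and 143 lower genes. The direction was shared by all 4 mice with both libraries for 1974 of the 2059 genes. The libraries of the populations did not overlap for 20.9% of all tested genes, 6.48% as higher and 14.4% as lower. The excess of lower genes depended on the scaling: 72.0% of the calls were lower with the deposited values. Median-ratio rescaling gave 55.4% (925 higher, 1147 lower), and quantile normalization gave 56.9% (823 higher, 1088 lower). The median difference of all genes moved with it, from -0.11 to -0.01 and 0.03, so that small differences are to be read against a median of -0.11. Leaving out any 1 of the MrgprA3+ libraries lowered the count. It was 1226 without replicate 1, 1620 without replicate 2, 1382 without replicate 4 and 1733 without replicate 5. Leaving out 1 MrgprA3- library gave 1753 to 2057. Of the tested genes 22 stayed under 1 FPKM in every MrgprA3- library and 269 in every MrgprA3+ library. They passed the expression filter only through the other population, and 21 of the higher and 215 of the lower calls are theirs, so that a difference was built into their selection. Among the genes named here these are Mrgpra7, Ptpn6, Cbln1, Cd8a, Csf3, Gm6213, Meig1 and Gm5431 on the higher side and C1qb, Cnr1, Gabrb1, Gpr83, Hhatl, Hoxb7, Lrrc4c, Nxph1, Prkch, Sema5a, Slc12a7, Slit1, Trpc4 and Zeb2 on the lower side.

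**Figure D2:**
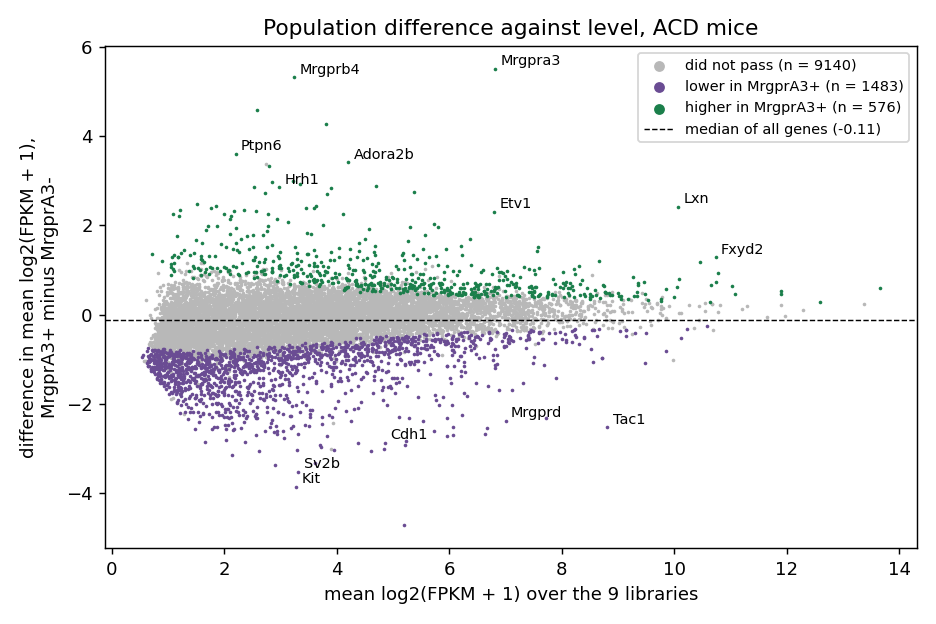
Difference between populations (MrgprA3+ minus MrgprA3-, in mean log2(FPKM + 1)) against mean level over the 9 libraries for the 11199 tested genes, with genes that passed the threshold in colour and the median of -0.11 as a dashed line. Mrgpra3 and Mrgprb4 stand highest, Lxn differs by 2.42 among the most abundant genes, and 1483 genes lie below against 576 above.

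Outside the Mas-related family, the largest rises were in genes of varied kinds, from Cbln1, at a mean of 7.25 FPKM in the labelled neurons, to Mlc1, at 121 FPKM. Ptpn6, the tyrosine phosphatase SHP-1, was at 14.7, 22.1, 13.5 and 20.7 against 0.69, 0.36, 0.56, 0.57 and 0.43 FPKM (log2 difference 3.60, SE 0.26, adjusted p = 1.09e-07 from limma). Mustn1, a small nuclear protein known from muscle and skeleton, was at 23.2, 28.5, 24.5 and 20.6 against 0.96, 1.24, 2.21, 1.53 and 1.62 FPKM (3.34, SE 0.26). Neither gene reached 3 FPKM in any MrgprA3- library, and Ptpn6 passed the expression filter only through the MrgprA3+ libraries, so that a difference was built into its selection. The membrane serine protease Tmprss11c (2.99, SE 0.28), the zinc-finger factor Ovol2 (2.87, SE 0.29) and Krt27, a keratin of the hair follicle (2.82, SE 0.21), averaged 29.25, 16.8 and 43.7 FPKM against 2.78, 1.44 and 5.30 FPKM. Mlc1, a membrane protein best known from astrocyte end feet, was at 146, 92.2, 101 and 145 against 22.3, 16.9, 12.8, 15.8 and 17.0 FPKM (2.75, SE 0.21). The LIM-domain protein Crip1 (40.5 against 5.21 FPKM), the secreted synapse organizer Cbln1 (7.25 against 0.358), the mitochondrial NOD-like protein Nlrx1 (30.8 against 4.91) and the tweety-family membrane protein Ttyh2 (8.68 against 0.76) were higher by 2.43 to 2.69. Cbln1 varied most among these, at 3.40, 11.4, 3.93 and 10.2 FPKM in the MrgprA3+ libraries.

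Among the most abundant transcripts, Lxn and Fxyd2 set the populations apart. Lxn, which codes for the carboxypeptidase inhibitor latexin, was at 2516, 2669, 3344 and 2421 against 509, 465.9, 517, 540 and 502 FPKM (2.42, SE 0.10). It is 1 of the 15 highest genes of the MrgprA3+ neurons and is not among the 15 highest of the MrgprA3- neurons. Fxyd2, a regulatory subunit of the sodium pump, was at 3103, 3191, 3370 and 1834 against 1302, 928, 1255, 1316 and 998 FPKM (1.28, SE 0.19). The ferritin light chain Ftl1 averaged 2525 against 1314 FPKM (0.94, SE 0.10), while Fth1, the heavy chain, averaged 2465 against 2270.5 FPKM and did not pass, but passed as lower after quantile normalization (-0.30). Ubb, the polyubiquitin gene at the top of both populations (16228 against 10785 FPKM), and Anxa5 (2675 against 1702 FPKM) were higher by 0.59 and 0.65, calls that quantile normalization removed (adjusted p = 0.418 and 0.265 from limma). Calca, which codes for the neuropeptide CGRP, averaged 4613 against 3345 FPKM (0.46, SE 0.11), and lost its call after quantile normalization (adjusted p = 0.059) and without MrgprA3+ replicate 1 (adjusted p = 0.0577).

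**Figure D3:**
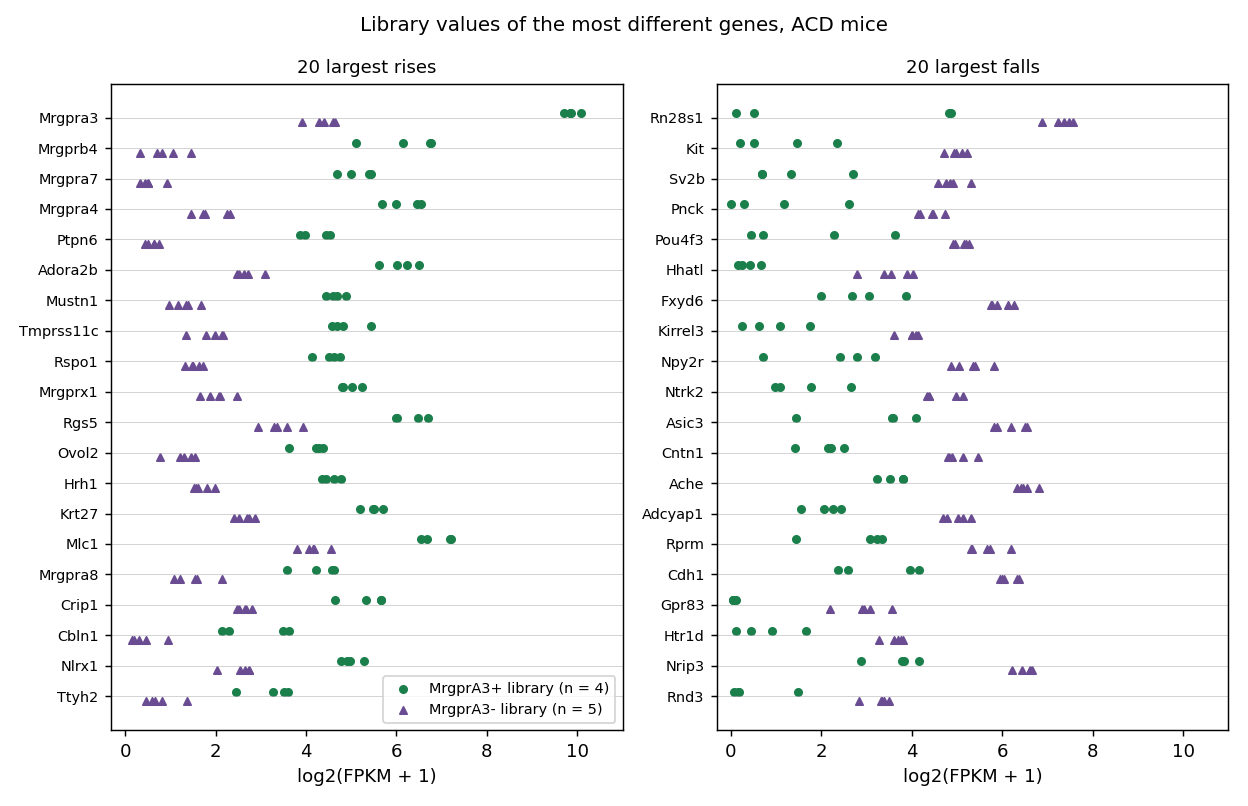
Levels in log2(FPKM + 1) of the 20 largest rises (left) and 20 largest falls (right) in each MrgprA3+ (circles, n = 4) and MrgprA3- library (triangles, n = 5) of ACD mice. The libraries of the populations do not overlap for any of these 40 genes, which is a condition of the choice, and MrgprA3+ libraries scatter more among the falls.

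Apart from Rn28s1, the largest falls included receptors, adhesion molecules and synaptic genes. Kit, the receptor of stem cell factor, was at 1.75, 0.15, 0.42 and 4.08 against 36.5, 30.3, 25.1, 29.4 and 33.7 FPKM (-3.86, SE 0.32, adjusted p = 4.29e-07 from limma). Sv2b, a glycoprotein of synaptic vesicles, was at 0.62, 0.62, 1.5 and 5.49 against 23.04, 27.8, 25.95, 38.4 and 29.1 FPKM (-3.53, SE 0.33). MrgprA3+ replicate 5 was the highest of its population for both. Pnck, a calmodulin-dependent kinase, was at 5.07, 0, 0.22 and 1.27 against 21.2, 25.6, 20.9, 17.2 and 16.5 FPKM (-3.38, SE 0.37), and the homeodomain factor Pou4f3 at 3.88, 0.36, 0.65 and 11.4 against 29.1, 37.5, 35.9, 30.0 and 34.5 FPKM (-3.33, SE 0.42). MrgprA3+ replicate 2 had the lowest value for Kit, Pnck and Pou4f3. Hhatl, a relative of the Hedgehog acyltransferase (0.3125 against 11.04 FPKM), the sodium pump regulator Fxyd6 (7.35 against 61.9), the immunoglobulin adhesion molecule Kirrel3 (1.06 against 14.8) and Rnd3 (0.520 against 8.78) were lower by 2.80 to 3.15 in log2 in size. Ache, the acetylcholinesterase, was at 10.4, 8.38, 12.9 and 12.9 against 86.4, 111, 93, 78.9 and 84.9 FPKM (-2.93, SE 0.18). Rprm, a protein of cell cycle arrest, and Nrip3 averaged 6.68 against 50.4 and 12.3 against 90.1 FPKM. The orphan receptor Gpr83 did not exceed 0.09 FPKM in any MrgprA3+ library and was at 3.58 to 10.8 FPKM in the MrgprA3- libraries.

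The markers of other neuron classes were mostly lower, with exceptions in each direction. Counts in these and all following lists are to be read against shares of 5.14% higher and 13.2% lower over all genes. Of 8 tested markers of low-threshold C fibres 7 were lower and none was higher. Th, tyrosine hydroxylase, was at 25.2, 8.96, 38.15 and 31.0 against 157, 167, 156, 149 and 138 FPKM (-2.69, SE 0.25). Of 11 NP3 markers 7 were lower and 1 higher, the latter call being lost without any 1 of the MrgprA3+ libraries or MrgprA3- replicate 4: Nppb averaged 1.76 against 11.8, Sst 2.23 against 11.9 and the calcium-binding copine Cpne6 41.1 against 228 FPKM. Of 17 NF markers 11 were lower, with Scn1a at 0.743 against 8.02 FPKM, and the ETS factor Etv1 was higher, at 257, 235, 331 and 263 against 54.5, 49.0, 55.4, 50.05 and 61.4 FPKM (2.30, SE 0.14). Nefh, the heavy neurofilament, averaged 41.4 ± 10.8 (SD, n = 4) against 80.9 ± 29.2 FPKM (n = 5) and did not pass, though it did with the mouse as a fixed term (adjusted p = 0.0114 from limma). Of 12 peptidergic markers 7 were lower and 3 higher, the latter 1 without MrgprA3+ replicate 1. Tac1, which codes for substance P, was at 220, 166, 111 and 202 against 1303, 1069, 678, 946 and 981 FPKM (-2.52, SE 0.27). Of 12 NP2 markers 7 were higher, among them Mrgpra3, by whose label the cells were sorted, and 1 was lower. The lower one was Trpa1, an irritant-gated channel, at 16.9, 20.3, 24.4 and 14.6 against 49.95, 41.9, 32.2, 36.6 and 46.7 FPKM (-1.09, SE 0.21). Of 11 NP1 markers 5 were lower, Mrgprd among them, and 3 higher (1 without MrgprA3+ replicate 4).

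**Figure D4:**
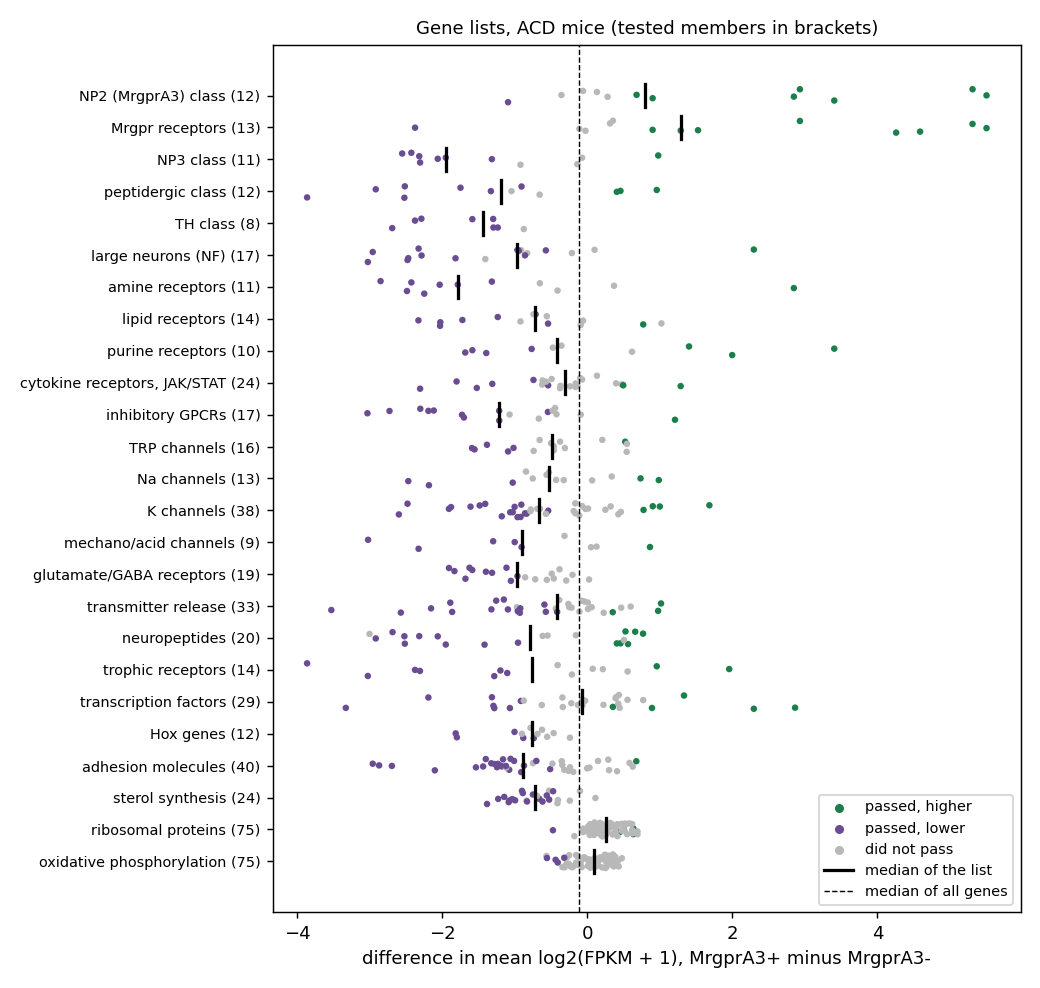
Differences between populations (MrgprA3+ minus MrgprA3-, in mean log2(FPKM + 1)) of the tested members of 25 gene lists, in colour where they passed the threshold, with the median of each list as a bar and that of all genes (-0.11) as a dashed line. The Mas-related receptors and the NP2 markers, both of which include the sorted gene Mrgpra3, have medians of 1.29 and 0.79. The NP3 markers and amine receptors lie lowest, at -1.95 and -1.78.

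Among receptors for amines Hrh1 stood against most of the others. Of 11 tested, 1 was higher, 7 were lower and 3 did not pass, with a median of -1.78 against -0.11 for all genes. Hrh1, the histamine receptor of itch fibres, was at 23.7, 26.6, 20.7 and 19.6 against 1.96, 2.98, 2.51, 2.08 and 1.88 FPKM (2.85, SE 0.24, adjusted p = 5.23e-07 from limma). The serotonin receptors Htr1d (0.870 against 11.5 FPKM), Htr5b (2.32 against 15.3), Htr1f (1.99 against 14.7) and Htr1a (1.29 against 9.13) were lower by 2.25 to 2.85 in size, and their libraries did not overlap.

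Of 10 purine receptors tested, 3 were higher and 4 lower. P2ry2, a receptor for ATP and UTP coupled to Gq, was at 26.6, 20.4, 32.65 and 36 against 5.87, 7.85, 8.55, 4.57 and 5.54 FPKM (2.00, SE 0.26). The inhibitory adenosine receptor Adora1 was at 18.1, 10.4, 8.95 and 19.8 against 43.8, 51.9, 46.4, 42.55 and 44.6 FPKM (-1.68, SE 0.20), opposite in direction to Adora2b. P2ry1 (0.983 against 5.09 FPKM) and P2rx6 (1.16 against 4.798 FPKM) were lower too, and the ATP-gated channel P2rx3 averaged 141 ± 24.0 against 179 ± 17.8 FPKM and did not pass. Of 14 lipid receptors tested 7 were lower (4 without MrgprA3+ replicate 1) and Gpr35 was higher (54.6 against 31.0 FPKM, 0.77, SE 0.17), with 2 higher without MrgprA3+ replicate 4. The sphingosine 1-phosphate receptor S1pr3 was at 12.6, 9.38, 22.1 and 18.6 against 73.6, 93.2, 75.6, 63.4 and 91.5 FPKM (-2.33, SE 0.22). The lysophosphatidic acid receptors Lpar1, Lpar3 and Lpar5 averaged 4.98, 3.92 and 4.68 against 19.6, 17.7 and 15.9 FPKM.

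Of 24 cytokine receptors and their signalling genes tested, 2 were higher and 6 lower, with 1 higher without any 1 of the MrgprA3+ libraries or of MrgprA3- replicates 3, 4 and 5. Il2rg, the common gamma chain of several interleukin receptors, was at 6.79, 7.27, 8.64 and 12.5 against 3.52, 3.14, 2.25, 2.40 and 3.45 FPKM (1.29, SE 0.27). Il31ra, the receptor of the itch cytokine interleukin 31, was at 14.4, 6.65, 21.9 and 14.1 against 77.9, 53.9, 72.3, 58.6 and 88.7 FPKM (-2.30, SE 0.26). Its partner Osmr averaged 35.2 ± 7.77 against 38.5 ± 5.90 FPKM and did not pass (adjusted p = 0.675 from limma). Tnfrsf1a, a receptor of tumour necrosis factor, averaged 1.69 against 7.66 FPKM and Il11ra1 1.42 against 5.74 FPKM. Of 17 receptors coupled to Gi or otherwise inhibitory, 10 were lower and 1 higher. Npy2r was at 8.05, 0.64, 5.86 and 4.31 against 55.7, 28.0, 40.03, 32.1 and 41.25 FPKM (-3.03, SE 0.38), and Npy1r at 4.53, 3.28, 3.48 and 4.64 against 35.25, 36.7, 21.1, 28.9 and 40.2 FPKM (-2.72, SE 0.27). Both are receptors of neuropeptide Y. The cannabinoid receptor Cnr1 averaged 0.4325 against 6.04 and the muscarinic receptor Chrm2 0.728 against 6.33 FPKM. The exception was the galanin receptor Galr1, at 5.73, 9.90, 16.8 and 13.3 against 4.16, 4.16, 3.88, 3.56 and 4.54 FPKM (1.21, SE 0.26).

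Channel genes of several families differed in both directions. Of 38 potassium channel genes tested 4 were higher and 17 lower, counts that became 2 and 10 without MrgprA3+ replicate 1, and 2 were higher without replicate 4 or replicate 5. Kcnmb1, an auxiliary subunit of the large-conductance calcium-activated channel, was at 159, 130, 184 and 163 against 44.6, 50.5, 45.8, 50.5 and 50.8 FPKM (1.69, SE 0.13). Its relative Kcnmb2 averaged 0.690 against 5.19 FPKM (-1.88, SE 0.35). The sodium-activated channel Kcnt1 was higher (38.9 against 18.7 FPKM), and the auxiliary subunit Kcnab1 (22.7 against 118), Kcna1 (3.50 against 22.9) and Kcnc4 (1.43 against 7.45) were lower. Of 7 background potassium channels tested Kcnk18, known as TRESK, was higher, at 19.9, 27.1, 31.95 and 20.8 against 8.12, 8.87, 8.49, 8.24 and 9.92 FPKM (1.39, SE 0.20). Kcnk1, Kcnk2 and Kcnk3 averaged 6.32, 1.36 and 0.738 against 29.1, 10.1 and 3.87 FPKM and were lower. Kcnk4 averaged 11.8 against 14.3 FPKM and did not pass.

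Asic3, an acid-gated channel, had the largest fall in log2(FPKM + 1) of any channel named here, at 10.85, 1.70, 11.1 and 16.0 against 57.8, 92.0, 90.2, 72.5 and 55.65 FPKM (-3.02, SE 0.41). This scale understates falls of weak genes. As a ratio of mean FPKM, some weaker channels fell further, such as Asic1 (0.1, against 0.135 for Asic3). Asic1 averaged 0.780 against 7.80 FPKM, and Asic2 33.4 ± 6.31 against 30.2 ± 4.30 FPKM, which did not pass. Of 9 mechanical and acid sensors 5 were lower (3 without MrgprA3+ replicate 1 or replicate 4), among them Piezo2, the channel of touch, at 7.90 against 20.2 FPKM, and Tmem63a was higher, at 34.3 against 18.3 FPKM. Of 16 TRP channels 1 was higher, a call lost without MrgprA3+ replicate 1, 4 or 5 or MrgprA3- replicate 1, 2 or 5 (2 without MrgprA3- replicate 3). The 5 lower ones included Trpc4 (0.070 against 2.24 FPKM) and Trpm2 (1.55 against 6.77 FPKM) besides Trpa1. The heat and capsaicin channel Trpv1 was at 148, 153, 118 and 151 against 262, 273, 161, 182 and 266 FPKM (-0.66, SE 0.23). It did not pass (adjusted p = 0.0691 from limma), though it did with the mouse as a random block (adjusted p = 0.04) or a fixed term (0.000303). Of 13 sodium channel genes 2 were higher (0 without MrgprA3+ replicate 4) and 3 lower: the latter were Scn1a, the beta subunit Scn4b (1.19 against 8.46 FPKM) and Scn7a (13.3 against 28.4 FPKM). Scn10a and Scn11a, the channels of nociceptors, averaged 168 against 160 and 163 against 128 FPKM, and neither passed, although Scn11a did with the mouse as a random block (adjusted p = 0.0491 from limma) and not with it as a fixed term. Of 9 calcium channel genes 2 were lower, with Cacnb4 at 9.02 against 21.5 FPKM, where 13.2% of all genes were lower. Of 14 chloride channels and transporters 5 were lower (3 without MrgprA3+ replicate 1), with Slc12a7 at 0.335 against 2.85 and Clcn6 at 7.99 against 16.5 FPKM.

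Of 19 receptor subunits for glutamate and GABA 10 were lower and none higher. Grik1, a kainate receptor subunit, was at 73.3, 50.5, 69.5 and 104 against 243, 194, 205, 254 and 274 FPKM (-1.68, SE 0.18). Gria1 averaged 1.38 against 7.07 and Gabrb1 0.090 against 3.11 FPKM, whereas Grin1, at 23.2 against 26.6 FPKM, did not pass. Of 33 genes of transmitter release 15 were lower and 3 higher. With 1 library left out, from 10 (without MrgprA3+ replicate 1) to 16 were lower and from 2 to 5 (without MrgprA3- replicate 3) higher. Snap25, a core protein of vesicle fusion, was at 495, 403, 438 and 561 against 981, 897, 987, 1173 and 999 FPKM (-1.09, SE 0.12). Calcium sensors of release picked from the called members parted: Syt5 was at 459, 406, 476 and 412 against 212, 223, 202, 217 and 224 FPKM (1.02, SE 0.10) and Syt7 averaged 19.1 against 9.37 FPKM, while Syt2 averaged 0.800 against 9.05 FPKM. Other synaptotagmins of the list are not reported here. Rab3b averaged 1.49 against 10.1 FPKM. Of 20 neuropeptide genes and processing enzymes 6 were higher (3 without MrgprA3+ replicate 1) and 9 lower. The prohormone convertase Pcsk2 (116 against 72.9 FPKM), the granin Scg3 (1151 against 775) and Nmb, which codes for neuromedin B (161 against 93.7), were higher. Adcyap1, which codes for PACAP (3.32 against 31.2), Cartpt (2.61 against 21.95) and Gal, which codes for galanin (25.6 against 144), were lower, so that the galanin transcript and that of its receptor Galr1 went opposite ways.

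Signalling genes downstream of receptors differed in both directions, as did genes at large (5.14% higher, 13.2% lower). Of 15 regulators of G-protein signalling 4 were higher and 4 lower (2 lower without MrgprA3+ replicate 1, 4 or 5). Rgs5 was at 63.5, 88.0, 103 and 62.6 against 9.27, 6.65, 8.80, 14.2 and 10.9 FPKM (2.88, SE 0.26), with Rgs2 (7.96 against 1.85) and Rgs17 (27.3 against 12.0) also higher and Rgs12 lower (0.6625 against 5.37). Of 21 genes of Gq signalling 6 were lower and 1 higher (3 without MrgprA3- replicate 3): Gna14, a Gq-family alpha subunit, averaged 190 against 125 FPKM, while the phospholipase Plcd4 (4.29 against 23.8) and the protein kinases C Prkcq (8.09 against 33.9), Prkcb (1.01 against 6.98) and Prkch (0.1825 against 3.10) were lower. Plcb3, the phospholipase of histamine itch, averaged 100.01 against 82.6 FPKM and did not pass. Of 30 genes of Gs and Gi signalling 4 were higher and 6 lower. The regulatory subunit Prkar2b was at 52.8, 92.7, 62.9 and 73.8 against 27.6, 25.3, 28.4, 34.0 and 27.4 FPKM (1.25, SE 0.18), and among phosphodiesterases Pde1c was higher (40.9 against 17.8) and Pde11a (1.94 against 16.1), Pde4c (1.79 against 9.56) and Pde4b (2.21 against 6.55) were lower.

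The R-spondins, secreted enhancers of Wnt signalling, were divided between the populations. Rspo1 was at 23.4, 16.4, 26.0 and 21.9 against 2.28, 2.10, 1.85, 1.51 and 1.77 FPKM (2.97, SE 0.24), and Rspo4 at 27.6, 28.3, 21.8 and 28.5 against 4.8, 4.41, 4.01, 3.90 and 4.30 FPKM (2.38, SE 0.20). Rspo2 went the other way, at 10.7, 17.5, 7.23 and 14.02 against 54.1, 36.1, 41.6, 34.6 and 46.0 FPKM (-1.75, SE 0.24). The libraries of the populations did not overlap for any of the 3. Those were 3 of the 5 called among 21 tested Wnt and BMP pathway genes, of which 2 were higher and 3 lower (1 lower without MrgprA3+ replicate 1). The share called over all genes was 18.4%.

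Among receptors of the GDNF family, Gfra1 stood against Gfra2 and Gfra3, while Gfra4 was tested too and is not reported here. Gfra1 was at 77.2, 98.0, 152 and 162 against 26.2, 32.05, 23.3, 30.8 and 36.04 FPKM (1.96, SE 0.22). Gfra2 was at 18.3, 12.1, 18.6 and 22.8 against 97.3, 93.2, 99.0, 90.3 and 95.3 FPKM (-2.37, SE 0.16), and Gfra3 at 36.9, 22.8, 16.2 and 26.3 against 136, 157, 110, 97.9 and 133 FPKM (-2.30, SE 0.22). Ret, the kinase shared by these coreceptors, averaged 66.1 ± 5.4 against 57.0 ± 7.37 FPKM and did not pass. Ntrk2, the receptor kinase of BDNF, was lower (2.45 against 24.7 FPKM). In all, 2 of 14 trophic factor receptors were higher and 7 lower.

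Of 29 sensory neuron transcription factors 5 were higher (3 without MrgprA3+ replicate 4 or replicate 5) and 7 lower. Isl2, a LIM homeodomain factor, was at 58.1, 79.6, 72.0 and 63.6 against 25.3, 27.3, 32.65, 25.5 and 21.8 FPKM (1.33, SE 0.18), whereas Isl1 averaged 76.4 against 87.6 FPKM and did not pass. Rxrg, a retinoid receptor, averaged 4.97 against 19.5, Zeb2 0.688 against 3.16 and Zfp521 1.28 against 4.59 FPKM. Of 12 Hox genes, which mark position along the body axis, 5 were lower and none higher, with 3 lower without MrgprA3+ replicate 1 or replicate 5 and 8 without MrgprA3- replicate 3. Hoxb7 averaged 0.340 against 3.57, Hoxb5 3.545 against 12.1 and Hoxa10 9.65 against 18.4 FPKM.

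Adhesion molecules had 22 lower members and 1 higher of 40 tested, with a median of -0.89. The higher call was lost without any 1 of the MrgprA3+ libraries or MrgprA3- replicate 4, and 2 were higher without MrgprA3- replicate 5. The number of lower members was 13 without MrgprA3+ replicate 1 and 14 without replicate 4. Cntn1, a contactin of axons, was at 4.65, 1.66, 3.43 and 3.65 against 27.0, 27.3, 34.2, 42.9 and 28.8 FPKM (-2.96, SE 0.26), and Cdh1, the epithelial cadherin, at 14.5, 4.98, 4.18 and 16.8 against 81.2, 62.5, 60.9, 64.4 and 79.5 FPKM (-2.87, SE 0.28). Chl1 averaged 1.23 against 12.6 and Pcdh9 2.44 against 13.1 FPKM. Of 28 guidance genes 4 were higher and 6 lower: the secreted semaphorin Sema3c (9.20 against 2.59) and the ephrin receptor Ephb6 (23.1 against 9.42) were higher, and the semaphorin receptor Nrp2 (1.11 against 9.84), Sema5a (0.240 against 3.13) and Slit1 (0.665 against 3.37) were lower. Of 37 cytoskeletal genes 7 were higher and 5 lower, a split that turned to 12 and 2 under median-ratio rescaling and to 4 and 7 under quantile normalization. Without MrgprA3+ replicate 1 the split was 4 and 2, and 4 were higher without replicate 2 and 3 without replicate 4. Tubb2b (932 against 566 FPKM) and Gap43, a growth cone protein (415 against 257 FPKM), were higher, and Nefm (295 against 573) and Map2 (1.025 against 5.79) lower.

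Of 24 genes of cholesterol synthesis and its control 16 were lower and none higher, with a median of -0.72, 14 under median-ratio rescaling and 17 under quantile normalization. With 1 library left out, from 13 (without MrgprA3+ replicate 4) to 17 were lower. Nsdhl, an enzyme of the pathway, was at 44.4, 43.7, 30.6 and 38.8 against 97.7, 85.8, 82.1, 83.6 and 87.8 FPKM (-1.14, SE 0.15, adjusted p = 3.96e-05 from limma). The enzymes Hsd17b7 (10.8 against 26.3 FPKM) and Dhcr7 (8.43 against 18.9 FPKM) were lower by 1.23 and 1.08 in size, and the libraries did not overlap for any of these 3 genes. The 2 longest lists had few called members. Of 75 genes of oxidative phosphorylation 4 were lower with the deposited values, none after median-ratio rescaling, and from 0 to 4 with 1 library left out (0 without MrgprA3+ replicate 1 or replicate 4). Of 75 ribosomal protein genes 1 was lower and 4 were higher, 16 after median-ratio rescaling, and from 1 (without MrgprA3+ replicate 1 or 2 or MrgprA3- replicate 5) to 16 (without MrgprA3+ replicate 5) with 1 library left out.

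Of 37 genes of antigen presentation and the interferon response 7 were higher (4 without MrgprA3+ replicate 1) and 3 lower (1 without replicate 4). Ifi27l2a was at 17.7, 19.9, 21.6 and 4.05 against 3.66, 1.61, 1.21, 1.73 and 1.82 FPKM (2.32, SE 0.39), with MrgprA3+ replicate 5 close to the highest MrgprA3- library. Ifit3 averaged 17.6 against 6.47 FPKM. The chemokine Ccl2 was lower, at 0.98, 0.77, 1.11 and 0.70 against 3.47, 2.96, 4.02, 5.07 and 5.68 FPKM (-1.45, SE 0.30). Macrophage markers were lower in the same libraries, as given above. Atf3, a factor of nerve injury and stress, was at 21.1, 8.78, 18.6 and 14.8 against 45.7, 82.2, 39.0, 37.25 and 49.98 FPKM (-1.63, SE 0.32), and the neuropeptide Nts (9.49 against 38.7) and the RNA-binding Zfp36 (2.40 against 9.77) were lower too. Of 16 injury genes 5 were lower and 1 higher (2 higher without MrgprA3- replicate 3). Of 19 immediate early and stress genes 5 were lower and 1 higher, the latter call being lost without any 1 of 6 libraries (MrgprA3+ replicates 1, 2 and 4, MrgprA3- replicates 1, 2 and 5). Both lists had 3 lower without MrgprA3+ replicate 1.

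Few genes reached 1 FPKM in the MrgprA3+ neurons and stayed under 0.5 FPKM in the others. Fewer genes were above 0 FPKM in the MrgprA3+ libraries at large, as given above, and the part of this in the counts that follow was not tested. Only 5 genes had at least 1 FPKM in all 4 MrgprA3+ and less than 0.5 in all 5 MrgprA3- libraries, against 69 the other way. These were named after their values were seen: Cd8a, known from T cells, was at 3.51, 4.61, 6.21 and 4.68 against 0.06, 0.09, 0.15, 0.14 and 0.16 FPKM, and Csf3, the granulocyte colony-stimulating factor, at 3.46, 3.74, 4.86 and 4.25 against 0.15, 0, 0.10, 0.04 and 0 FPKM. The others were Gm6213, Meig1 and Gm5431. The leukocyte marker Ptprc did not exceed 0.06 FPKM in the MrgprA3+ libraries or 0.24 FPKM in the MrgprA3- libraries. The cells that hold the Cd8a and Csf3 transcripts were not tested. Among the 69, and likewise picked afterwards, were Nxph1 (0.0375 against 4.30 FPKM) and Lrrc4c (0.130 against 4.11 FPKM), both known from synapse adhesion.

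The difference between populations mostly had the same direction in ACD and in control mice. Of the 2059 genes 98.2% differed in the same direction in the 5 and 5 libraries of control mice, which share no library with those of ACD mice, and across the 11199 genes the differences correlated with r = 0.829 (genes are not independent replicates). In a fit to all 19 libraries no gene of 11996 had an interaction of population and treatment past the threshold (limma, lowest adjusted p = 1.00). At an unadjusted p of 0.05, 464 genes (3.87%) passed, and 1 gene passed the threshold without MrgprA3+ replicate 5 of ACD mice. By unadjusted p the leading genes were Rsc1a1, at 5.83 against 2.67 FPKM in ACD and 1.8 against 3.68 FPKM in control mice, and Npl, at 1.15 against 2.19 and 6.21 against 2.69 FPKM. Sytl2, a synaptotagmin-like protein, was lower in MrgprA3+ neurons under both treatments, at 7.17 against 39.1 and 1.94 against 36.4 FPKM, and the carboxylesterase Ces5a was at 3.69 against 0.796 and 0.614 against 0.596 FPKM. Several genes with large differences had close values: the log2 differences of Mrgprb4 were 5.31 in ACD and 5.22 in control mice, of Adora2b 3.41 and 3.14, of Hrh1 2.85 and 2.67, of Lxn 2.42 and 2.31, and of Kit -3.86 and -3.82. Other genes were farther apart in control mice. Of 192 named and tested genes 15 had an unadjusted interaction p under 0.05, against 3.87% over all genes. Rsc1a1, Npl, Sytl2 and Ces5a are among the 15 by choice, since the smallest interaction p-values were a rule for naming. Of the 15, 11 were called lower in ACD mice, all 11 with a larger difference in control mice. Picked from them after their values were seen, Asic3 was at -3.02 in ACD and -4.46 in control mice, Cpne6 at -2.55 and -4.33, Th at -2.69 and -4.05, Ache at -2.93 and -4.07, Cntn1 at -2.96 and -3.85, and Nrip3 at -2.84 and -4.01. None passed after adjustment over all genes with limma, and Rgs5, at 2.88 and 2.08, was farther apart in ACD mice.

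**Figure D5:**
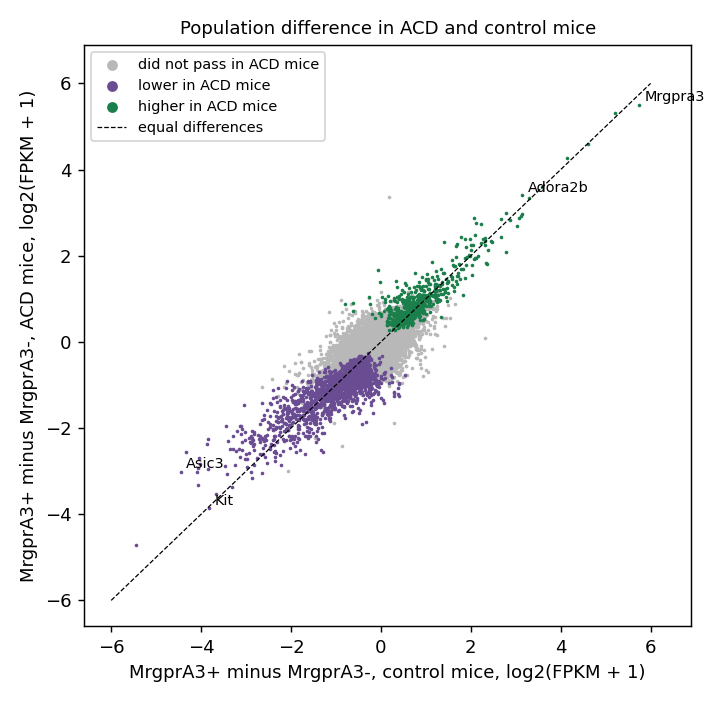
Difference between populations (MrgprA3+ minus MrgprA3-, in mean log2(FPKM + 1)) of the 11199 genes in control mice (horizontal) and ACD mice (vertical), in colour where the gene passed the threshold in ACD mice, with equal differences as a dashed line. The genes lie along the line (r = 0.829), and 2021 of the 2059 coloured genes have the same sign in both.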

How the data were processed

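Dorsal root ganglion neurons were sorted and their polyadenylated RNA was sequenced; reads were aligned with Bowtie2 to mm9, per the submitters' processing notes, with its version, the annotation and the quantification program not given in the sources used here. FPKM per gene and library, with 2 decimals, were deposited by the authors. Depth was estimated from the spacing of low values of genes of known length and is approximate. Each of the 9 libraries was taken by its label, and genes that reached 1 FPKM in 4 or more were kept. Group means of log2(FPKM + 1) were fitted with limma 3.58.1 in R 4.3.3, with 1 weight per population and eBayes with the trend and robust options. Differences are given with standard errors (SE), and for weakly expressed genes they understate the true change. Two-sided p-values were adjusted over all genes tested (Benjamini-Hochberg), with a threshold of 0.05. The interaction with treatment used all 19 libraries. Tested on simulated data, the fit gave more false calls than the threshold allows, for the population difference and for the interaction, so that counts of calls include more false ones than 0.05 implies.

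Per the labels both populations came from every animal. Replicate numbers were taken as pairs in the mouse blocks and in comparisons by mouse only. The main fits and the permutation tests did not use the pairs and treated the libraries of a mouse as independent. The residuals of same-numbered libraries correlated by 0.133, -0.0184, 0.141 and 0.203 in mice 1, 2, 4 and 5.

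The samples, members, lists and tests were chosen with earlier results of these data known. Named genes were the 20 largest rises and falls with at least 5 FPKM in the higher population and no overlap, the 10 smallest interaction p-values, the 15 highest genes per population, up to 4 called members per direction and 3 others of each list, and a fixed set of markers. Alternatives were other pseudocounts, filters, scalings, weights and mouse blocks, and leaving out each library. Promoters came from RefSeq (GRCm38.p6), and coordinates are of that build, not of the files' mm9. Some genes are not reported here.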

Additional observations from a re-analysis of the deposited data

Results flagged for a closer look

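In 32 of 408 groups of library values of the named genes, 1 library lay far from the rest of its group by Dixon's 95% criterion, which chance alone meets in about 1 group in 20. That rate does not hold where all other libraries of a group are at 0 FPKM, since any value above 0 is then flagged. This was so in the MrgprA3+ libraries for C1qb, Cdh5, Flt1, Kdr and Ptprc. Values are in FPKM. MrgprA3+ replicate 2 was low for Ednrb (0.28), Hsd17b7 (7.16), Kcnc4 (0.02), Pdgfrb (0.41), Rprm (1.72) and Zeb2 (0.16), and high for Flt1 (0.29). MrgprA3+ replicate 5 was low for Ftl1 (2105), Fxyd2 (1834) and Ifi27l2a (4.05), and high for Nefm (382), Rnd3 (1.78), Cdh5 (0.02) and Kdr (0.01). MrgprA3+ replicate 4 was low for Asic2 (24.0), Rspo4 (21.8) and Trpv1 (118), and high for Gm5431 (2.26), while replicate 1 was high for C1qb (0.06), Prkch (0.52) and Ptprc (0.06). Among MrgprA3- libraries, replicate 4 was low for Kirrel3 (11.2) and Pde4c (4.91) and high for Map2 (9.22) and Ubb (12914). Replicate 2 was high for C1qb (7.62) and Kcnk3 (5.21), replicate 5 for Cdh5 (0.08), Mrgpra9 (47.8) and Ptprc (0.24), replicate 1 was low for Syt2 (6.55) and replicate 3 for Rnd3 (6.15).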

How the results depend on the processing

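The count of 2059 genes lay between 1541 (at least 5 FPKM, 7408 genes tested) and 2647 (shared spread over 19 libraries) under other pseudocounts, filters, scalings, weights and blocks. With the mouse as a replicate block it was 2382 with an estimated correlation and 2267 with a fixed term, and among the named genes that pairing added the calls given for Trpv1 and Scn11a, and with the fixed term that of Nefh (adjusted p = 0.0114 from limma). With 1 library left out it ran from 1226 (without MrgprA3+ replicate 1) to 2057. The interaction count of 0 stayed so under the other settings run (303 to 797 genes at an unadjusted p of 0.05) except that it was 1 without MrgprA3+ replicate 5 of ACD mice. Of 175 named genes past the threshold, 167 passed it under every setting in which they were tested; stricter filters and fewer libraries left some untested. The others were Ubb, Anxa5, Calca, C1qb, Ednrb and Pdgfrb, as given above, Bcan, which failed with the shared spread (adjusted p = 0.108 from limma), and Rsc1a1, which failed without any 1 of 6 libraries. P2rx3 and Npl, which did not pass, each did under 1 other setting, and Trpv1, Scn11a and Nefh under several. Fth1 (0.11) turned to -0.30 after quantile normalization and passed in that direction (adjusted p = 0.0112 from limma). Differences near 0 changed sign for Mrgpra9 (-0.02, but 0.0956 after median-ratio rescaling and from -0.14 to 0.12 with 1 library left out) and Scn10a (-0.00359 after quantile normalization); the cause was not tested.

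Without read counts, the precision of single FPKM values is not known beyond the estimated depth. The larger spread of the 4 MrgprA3+ libraries limits what can be called. The median SE was 0.308 in the lowest of 4 classes of genes by level and 0.163 in the highest. From the lowest class to the highest, 18.4%, 16%, 15.7% and 23.5% of genes were called.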
